A study of Mus musculus with 2 samples.

Results

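The cell cycle genes described here are 33 genes whose RNA marks cells that copy their DNA or divide. They were chosen by name as a module, and all 33 were found by symbol among the 16971 genes of the deposited table. By role, 11 belong to DNA replication and 22 to G2 and mitosis. The cells came from the dissociated aortas of female mice of the C57/BL6 strain, wild type, fed chow and 12 weeks old, and were sequenced in droplets (10x v2). The 2 libraries, 1 for each aorta, form 1 group of 5451 cells, which the authors divided into 10 named populations. Per the labels the vessel was taken from the root to the femoral branching, freed of perivascular fat and digested with enzymes for 1 hour at 37 °C, and the selection of a cell type is not described. The design therefore compares populations of the vessel wall with each other, each population measured once in each library.

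A dividing cell first licenses its replication origins with the MCM ring, copies its DNA in S phase with the sliding clamp PCNA and fresh deoxynucleotides, and then builds the kinases, spindle motors and checkpoint proteins of mitosis. The RNAs of the first set are switched on by E2F factors at the start of S phase. Those of the second set are held off by the DREAM complex in resting cells and rise towards mitosis, so their presence together marks a cycling cell. In a healthy adult artery the smooth muscle, endothelium and fibroblasts are mostly at rest, while resident macrophages can renew by local division.

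RNA was counted as UMIs (unique molecular identifiers, which tag single captured transcripts). Library 1 had 11104066 UMIs in 2260 cells (median 4160.5 in a cell) and library 2 had 19484171 in 3191 cells (median 5636). They share 12 barcodes, which were kept as separate cells. Levels are CPM, the UMIs of a gene or gene set scaled to 1000000 UMIs of the population, unless another scale is named. The populations are VSMC (vascular smooth muscle), Fibro 1 and 2, EC 1 to 3 (endothelium), Neuron, and Mono 1, Mono 2 and Macro, which are called immune below. The names fit smooth muscle, fibroblast and endothelial markers in the populations that carry them. Macro did not: its cells had a median of 0 UMIs of 7 macrophage markers, and 85 of its 167 cells held 2 or more UMIs of T and NK cell markers, 48 of B cell markers, 1 of both and 33 of neither. Mono 1 had a median of 124.5 UMIs of the macrophage markers and Mono 2 of 50.0 (cells with 8 or more members left out of these medians). The authors made the populations from these same counts, so tests between them are not independent of the naming.

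Letters of the elements that this regulation is known to use were found in many, but not all, of the members' promoters. Sequences from RefSeq (mouse GRCm38.p6) were found for 28 members in 30 windows of the 250 bases before a start, and none for Tpx2, Aurkb, Ccna2, Mcm4 and Gins2. Both strands were searched for CCAAT (the box bound by NF-Y), TTTGAA (the CHR element bound by DREAM) and E2F letters. The E2F spellings searched were TTCCCGC together with TTGGCGC. Further spellings searched were TTCGCGC together with TTGCCGC. The CCAAT box was present in 90% of the 10 replication windows and in 90% of the 20 mitotic windows, against 33.8% of 32851 mouse promoters of that length. CHR letters stood in 40% of mitotic and 10% of replication windows, against 16.0% of all promoters. E2F letters stood in 60% of replication and 20% of mitotic windows, against 7.89% of all. Both CCAAT and CHR were found in 40% of mitotic windows, 10% of replication windows and 5.55% of all promoters. These matches describe letters and show no binding. Shown are the 150 bases before the start, 5′ to 3′ on the gene's strand, for 3 mitotic members whose UMIs lay mostly in few cells (Top2a, Cdk1, Mki67) and 2 replication members whose UMIs were spread widely (Mcm6, Rrm1). Capitals mark the motifs on either strand (ATTGG is CCAAT and TTCAAA is TTTGAA read from the other strand), and longer runs are overlapping matches.
Top2a promoter, chr11:99024190-99024339, minus strand: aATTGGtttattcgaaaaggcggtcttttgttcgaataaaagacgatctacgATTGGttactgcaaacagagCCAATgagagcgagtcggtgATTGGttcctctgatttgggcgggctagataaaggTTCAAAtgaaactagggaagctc
Cdk1 promoter, chr10:69352913-69353062, minus strand: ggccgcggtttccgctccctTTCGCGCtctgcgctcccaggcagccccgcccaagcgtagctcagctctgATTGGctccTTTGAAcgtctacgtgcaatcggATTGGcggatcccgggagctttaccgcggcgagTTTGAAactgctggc
Mki67 promoter, chr7:135716380-135716529, minus strand: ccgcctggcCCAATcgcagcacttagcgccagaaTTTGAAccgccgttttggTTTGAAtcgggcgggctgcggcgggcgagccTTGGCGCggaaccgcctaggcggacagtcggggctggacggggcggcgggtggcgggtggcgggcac
Mcm6 promoter, chr1:128359706-128359855, minus strand: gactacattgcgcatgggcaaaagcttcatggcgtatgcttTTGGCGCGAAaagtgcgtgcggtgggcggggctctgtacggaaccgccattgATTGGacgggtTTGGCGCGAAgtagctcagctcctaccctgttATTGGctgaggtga
Rrm1 promoter, chr7:102441545-102441694, plus strand: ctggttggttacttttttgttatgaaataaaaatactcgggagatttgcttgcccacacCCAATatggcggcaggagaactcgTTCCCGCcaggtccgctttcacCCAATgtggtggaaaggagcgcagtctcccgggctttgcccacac

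In Top2a, CHR letters lay 23 bases before the start behind CCAAT boxes at 58, 78, 98 and 149. In Cdk1, CHR letters lay at 15 and 71 with CCAAT boxes at 48 and 80 and E2F letters at 130. In Mki67 CHR letters lay at 98 and 116, with a CCAAT box at 141 and E2F letters at 67. Mcm6 and Rrm1 held no CHR letters in the window searched. Mcm6 had overlapping E2F letters at 106 and 109 and again at 43 and 46, and CCAAT boxes at 14 and 57. Rrm1 had E2F letters at 67 between CCAAT boxes at 45 and 91. The sequences shown are examples, and other members went the other way. Bub1, Hmmr and Ccnb1, whose UMIs also lay mostly in few cells, held CCAAT boxes but no CHR letters. Mcm2, a widely spread replication member, had CHR letters at 70, and the less concentrated Cdc20 at 18.

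The 22 mitotic members were concentrated in the immune populations, and there in very few cells. All 33 members together gave 5996 of 30588237 UMIs, or 194 CPM in library 1 and 197 CPM in library 2. The mitotic members summed to 148 and 306 CPM in the immune cells of libraries 1 and 2, and to 16.2 and 20.5 CPM in all other cells. As means over libraries these were 227 ± 112 and 18.4 ± 3.04 CPM (SD, n = 2). The lower immune library stood above both values of the other cells. By population, Macro had 452 and 648 CPM, Mono 2 had 126 and 324 and Mono 1 had 52.9 and 222. VSMC had 18.0 and 27.4 CPM, Fibro 1 had 10.4 and 11.4, Fibro 2 had 17.3 and 15.5, and EC 1 had 9.89 and 14.0. EC 2 had 35.5 and 18.5 CPM and EC 3 had 23.3 and 43.2. The 3 immune populations spread more between libraries than the others did, and Mono 1 of library 1 lay near EC 3 of library 2. Neuron, with 12 and 32 cells, had 0 and 9 mitotic UMIs.

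The 11 replication members were present everywhere and differed less. They summed to 260 and 284 CPM in immune cells and to 151 and 131 CPM in the other cells of libraries 1 and 2. Macro was highest with 438 ± 46.0 CPM (SD, n = 2), followed by Mono 2 with 256 ± 8.22 and Mono 1 with 233 ± 31.8. EC 3 with 189 ± 25.3, EC 2 with 180 ± 5.11, Fibro 2 with 152 ± 40.8, EC 1 with 141 ± 26.6, VSMC with 140 ± 10.9 and Fibro 1 with 133 ± 11.5 came next. Macro stood above Mono 2 in both libraries, and Mono 1 (210 and 255 CPM) lay just above EC 3 (171 and 207 CPM). All other neighbours in this order overlapped between libraries, while EC 2 (183 and 176 CPM) stood clear of EC 1 and VSMC. Neuron had 46.2 and 203 CPM from 2 and 19 UMIs.

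**Figure D1:**
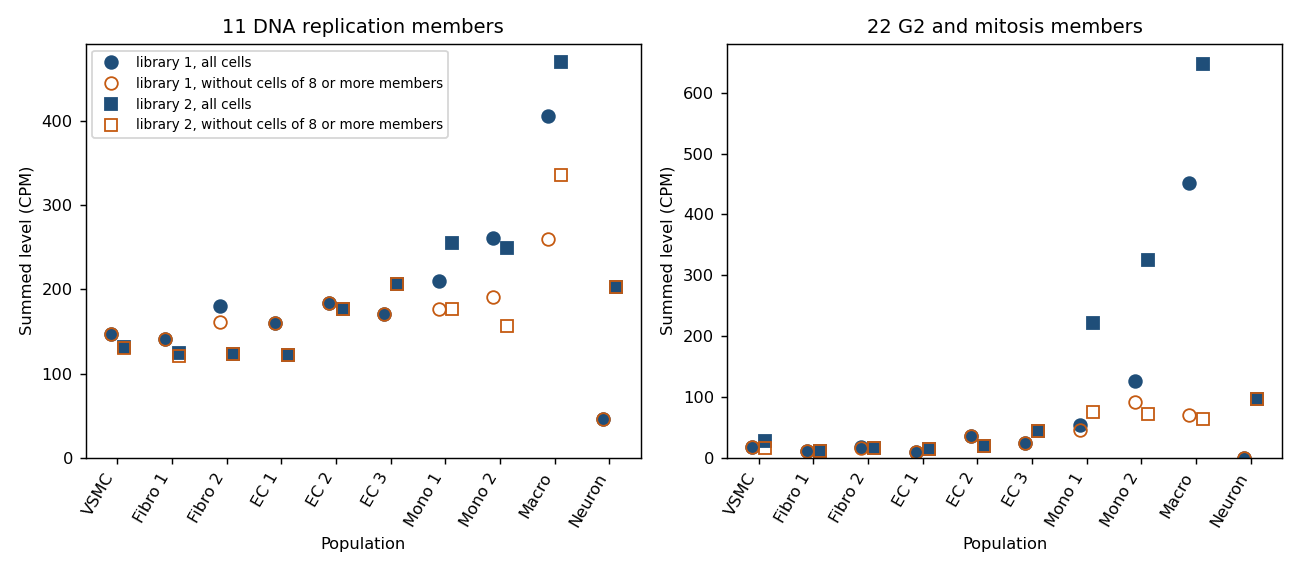
Summed level in CPM (linear axis) of the 11 replication members (left) and the 22 G2 and mitosis members (right) in each population, circles for library 1 and squares for library 2, filled for all cells and open without the 18 cells that hold 8 or more members. Filled mitotic points reach 648 CPM in Macro, while all open mitotic points stay under 100 CPM.

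Most cells held no or 1 member. A UMI of no member was found in 2541 cells, of 1 member in 1819, of 2 in 734, of 3 in 243 and of 4 in 69. Beyond that the counts thinned to 13, 7 and 7 cells with 5, 6 and 7 members, after which 18 cells held from 8 to 28 members. The limit of 8 was set after these counts were seen: 7 cells had 7 members and 1 cell had 8. Cells with more members also had more UMIs, with a median of 3750 in cells with none, 8268 with 3 and 9892 in the 18 cells. The 339 cells with 3 to 7 members had a median of 8596 UMIs, replication members made 84.6% of their member UMIs, and 195 of them had no mitotic member. In the 18 cells replication members made 33.5% of member UMIs and no cell lacked a mitotic member.

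**Figure D2:**
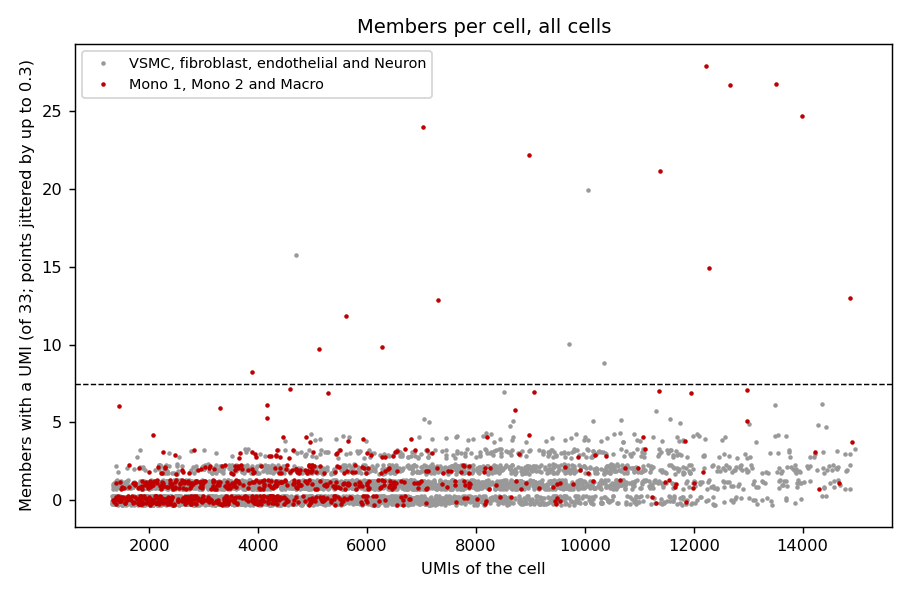
Number of the 33 members with a UMI (vertical) against total UMIs (horizontal, linear) for each of 5451 cells, immune cells in red and all others in grey. Above the dashed line lie the 18 cells with 8 or more members, 14 of them immune; below it the number of members grows with depth in both colours.

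These 18 cells, 0.330% of all, held 51.2% of the mitotic UMIs and 7.29% of the replication UMIs, with 0.556% of all UMIs. Since the members chose the cells, these shares are a description. Library 1 gave 4 of them, with 32.2% of its mitotic UMIs, and library 2 gave 14, with 57.8%. Immune cells made 14 of the 18, namely 7 of 443 Mono 1 cells, 4 of 109 Mono 2 cells and 3 of 167 Macro cells. VSMC had 2 of 2159 cells, Fibro 1 had 1 of 1147 and Fibro 2 had 1 of 634. None was found in 44 Neuron cells or in 748 endothelial cells, where a count of 0 allows a share of up to 0.401%. The share was 0.968% in library 1 and 2.69% in library 2 of immune cells (exact Clopper-Pearson 95% intervals 0.200 to 2.80% and 1.35 to 4.76%). In other cells it was 0.0513% and 0.108% (0.00130 to 0.285% and 0.0222 to 0.315%). The intervals cover counting error only, and immune cells had fewer UMIs, with a median of 4021 against 5266. None of the 18 was called a doublet by Scrublet. With 2 libraries no exact permutation test of shares between populations can reach 0.05, so none was run.

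At the lower limit of 3 members the classes stood closer. The share of cells with 3 or more members was 6.15% in library 1 and 6.83% in library 2. It was 8.39% and 12.0% in immune cells and 5.79% and 6.07% in other cells. Mono 2 had 25.0% and 15.9%, Macro 6.74% and 15.4%, Mono 1 5.52% and 9.92%, and VSMC 6.62% and 6.91%. Mono 2 also had the deepest cells, with a median of 6950 UMIs. When each cell was thinned to 1300 UMIs, 3.23% and 3.18% of immune cells and 0.205% and 0.180% of other cells kept 3 or more members.

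**Figure D3:**
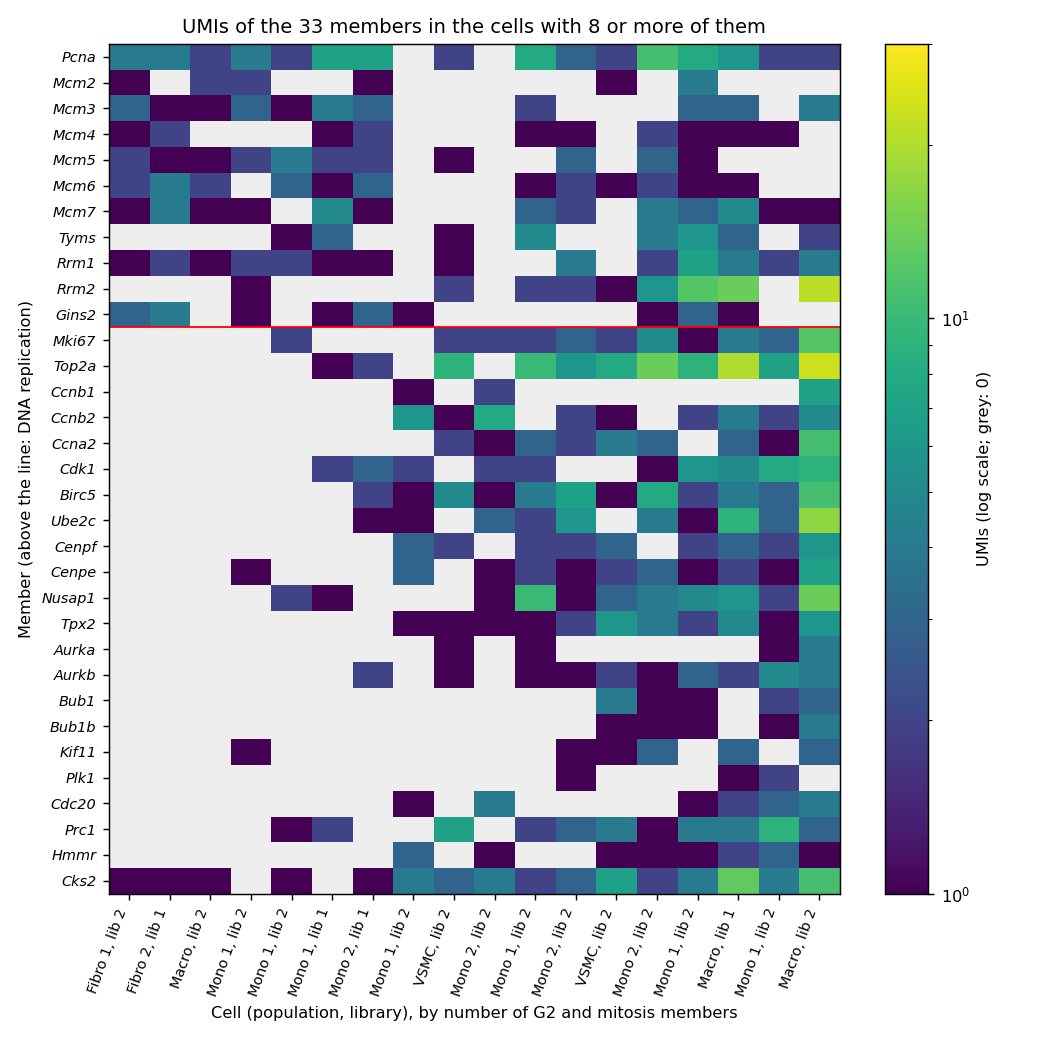
UMIs (colour, log scale, grey for 0) of the 33 members, replication above the red line and G2 and mitosis below it, in the 18 cells with 8 or more members, ordered by their number of mitotic members. The 7 cells on the left hold mostly replication members, and the 11 on the right hold 11 or more mitotic members.

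The 18 cells fell into a replication side and a mitotic side. In 11 of them 11 or more mitotic members were detected, and the other 7 held at most 6 and had more replication than mitotic members. Mki67 (the Ki-67 proliferation antigen) was found in 11 of the 18 and Top2a (DNA topoisomerase II alpha, which untangles sister chromatids) in 11. Pcna was found in 16 and Cks2, a small partner of the cyclin-dependent kinases, in 16. The 2 fibroblasts belonged to the replication side, with 9 and 8 replication members and 1 mitotic member each, and kept fibroblast markers (125 and 74 UMIs). In library 1, 1 of the 4 cells was on the mitotic side, against 10 of 14 in library 2.

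The 7 Mono 1 cells resembled their population in its defining genes: they held from 77 to 339 UMIs of the macrophage markers and none of the T and NK cell markers. Their member counts were 13 in the cell of library 1 and 10, 10, 12, 21, 24 and 28 in library 2. In the most complete of them all 11 replication and 17 mitotic members had a UMI. The 4 Mono 2 cells held 15 members in library 1 and 13, 22 and 25 in library 2. The one with 13 held no replication member at all, and had 8 UMIs of Ccnb2, the cyclin B2 that drives mitosis.

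Nearly all of Macro's mitotic signal came from 2 cells. The cell of library 1 held 27 members in 130 UMIs and that of library 2 held 27 members in 199 UMIs. Together they gave 257 mitotic UMIs, or 88.3% of those in Macro. The Macro cells with T and NK cell markers accordingly had 748 and 1106 CPM of mitotic members, and those with B cell markers 33.8 and 85.5 CPM. The cell of library 2 had 35 UMIs of T and NK cell markers, 18 of them from Cd3d and 10 from Cd3g, which encode parts of the T cell receptor complex. The cell of library 1 had 4 UMIs of that marker list and 0 of Cd3d and Cd3g, with 10 of Gata3 and 7 of Il7r (a lymphoid transcription factor and the interleukin 7 receptor). The other Macro cell, of library 2, had 7 replication members and 1 mitotic member. It held 8 UMIs of Mpo (myeloperoxidase, an enzyme of granulocyte precursors) of 10 in all cells, 4 of Flt3, 8 of Plac8 and 3 of Dntt (the nucleotide-adding enzyme of lymphoid precursors) of 8 in all cells. These genes were named after their values were seen. Without these 3 cells Macro had 70.7 and 64.1 CPM of mitotic members, close to Mono 2 with 92.1 and 72.0 and Mono 1 with 44.8 and 74.9.

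The 2 VSMC cells, both of library 2, held 16 and 20 members. They had 9 and 13 UMIs of the 5 smooth muscle markers, 0.192% and 0.129% of their UMIs, against a median of 2.92% in other VSMC. Among the 2159 VSMC cells 4 and 1, themselves included, had a share as low or lower. Myh11, the smooth muscle myosin, had 0 and 1 UMI in them. Both held Cdkn2c (an inhibitor of CDK4 and CDK6) at 6 and 16 UMIs, or 1278 and 1589 CPM, against 18.9 CPM in other VSMC. Postn, a matrix protein, had 13 and 36 UMIs (2770 and 3576 CPM against 642). Fibroblast markers gave 12 and 17 UMIs, nearly all from Col1a1, with 0 of Pdgfra and Dpt in both. Endothelial markers gave 1 UMI each and macrophage markers 1 and 0. Cdkn2c and Postn were named after their values were seen, and no test applies to 2 cells.

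The replication members split into widely spread and concentrated genes. To keep a gene from choosing its own cells, its UMIs were counted in cells with 8 or more of the other 32 members. These held 2.16% of the UMIs of Mcm6, 3.75% of Mcm4, 5.33% of Pcna, 5.56% of Mcm2, 6.48% of Tyms, 7.82% of Rrm1, 8.28% of Mcm3 and 9.20% of Mcm7. Mcm2 to Mcm7 are the subunits of the replicative helicase, Tyms makes thymidylate and Rrm1 is the large subunit of ribonucleotide reductase. Gins2, of the complex that activates the helicase, had 15.3% and Mcm5 16.8%. Rrm2, the cell cycle regulated small subunit of ribonucleotide reductase, stood apart with 46.6%. Of the 1105 cells with a UMI of Pcna, which also serves DNA repair, 544 had none of the other 32.

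The mitotic members had a median of 64.2% of their UMIs in such cells, against 7.82% for the replication members. With 22 mitotic and 11 replication members, most of the genes that chose the cells were mitotic, so this contrast is a description. Bub1, a spindle checkpoint kinase, was highest with 84.6% of 13 UMIs. Top2a had 82.6% of 132, Hmmr (a spindle and hyaluronan binding protein) 81.2% of 16, Ccna2 (cyclin A2) 81.1% of 37 and Birc5 (survivin, of the chromosomal passenger complex) 77.8% of 63. Mki67 had 71.7% of 53, Prc1, which bundles the central spindle, 71.4% of 56, Cdk1, the mitotic kinase, 67.8% of 59 and Ccnb1, cyclin B1, 66.7% of 15. Ccnb2 had 66.0% of 47, Cenpe, a kinetochore motor, 64.9% of 37 and Ube2c, the ubiquitin carrier of the anaphase complex, 63.5% of 74. Aurkb, the kinase of the passenger complex, had 61.1% of 36, Cenpf, of the outer kinetochore, 61.0% of 41, Nusap1, a spindle protein, 60.5% of 81 and Kif11, the motor that separates spindle poles, 60.0% of 20. Less concentrated were Aurka, the spindle pole kinase, with 46.7% of 15, Plk1, a polo kinase, with 44.4% of 9, and Tpx2, the activator of Aurora A, with 43.5% of 69. Bub1b, a checkpoint kinase, had 38.1% of 21, and Cdc20, the activator of the anaphase complex, 25.4% of 59. Cks2 was the lowest mitotic member, with 16.6% of 368 UMIs.

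**Figure D4:**
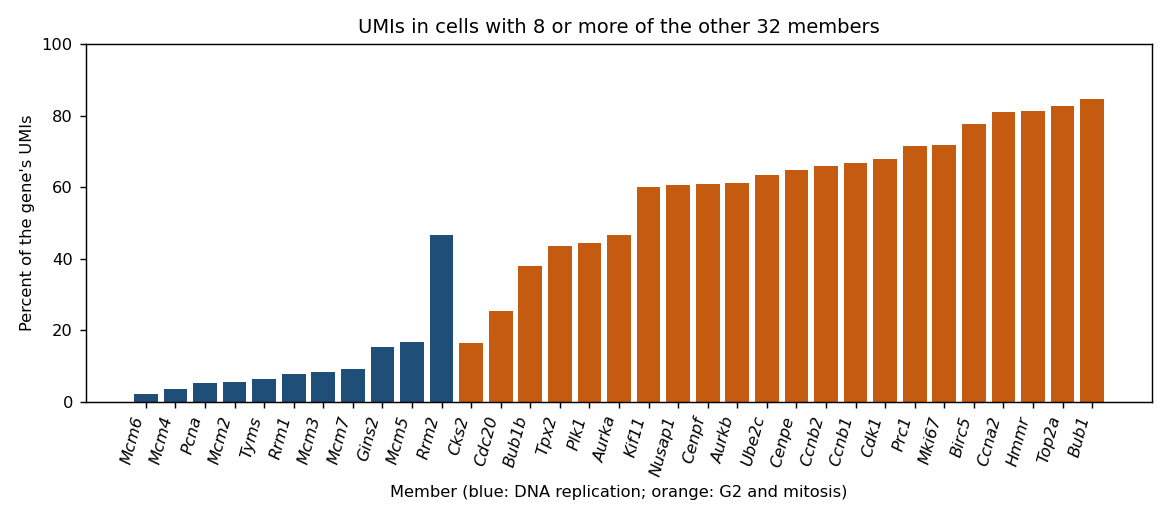
Percent of each member's UMIs (linear axis from 0) that lie in cells with a UMI of 8 or more of the other 32 members, blue for replication and orange for G2 and mitosis. Mitotic members lie between 16.6% (Cks2) and 84.6% (Bub1), and all replication members but Rrm2 lie under 17%.

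The same split appeared in pairs of members within cells. Over 5451 cells the 231 mitotic pairs had a median Pearson correlation of 0.291 of their log levels, and the 55 replication pairs 0.0508. Over the 5433 cells that remain without the 18, the medians were -0.00177 and 0.0177. These values are a description: cells share libraries and depth, and most counts are 0.

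Immune populations were compared with VSMC, fibroblasts and endothelium to ask which members carry the difference. With every gene of at least 1 UMI in the fit, edgeR's quasi-likelihood test called 31 of 33 members higher at an adjusted p under 0.05, against 14.3% of 16954 genes. With the filter on low counts 22 members were tested and 21 were called higher, against 22.5% of 10488 genes. The latter count supports nothing, since a rare gene could pass the filter only where it is high. In pooled cells of each library, 29 of 33 members were higher in immune cells in both libraries, 0 were lower in both, and Mcm6, Tyms, Aurka and Bub1b were higher in library 2 and lower in library 1. When the 18 cells were left out, 15 of 33 were higher in both libraries. The share of all genes with 1 direction in both libraries is not given here, so these counts are a description. In that fit 10 members were tested, of which 6 were called higher and 1 lower, against 21.3% and 27.7% of 10426 genes. The members chose the 18 cells, and 14 of them were immune, so leaving them out lowers members in immune cells by construction. Results without them, p-values included, describe the remaining cells.

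Top2a had 24.3 and 38.0 CPM in immune cells of libraries 1 and 2, from 30 and 77 UMIs, and 0.101 and 1.37 CPM in other cells, from 1 and 24 UMIs. Mki67 had 6.49 and 15.3 CPM against 0.405 and 0.573. Cdk1 had 8.92 and 19.7 CPM against 0.405 and 0.229. For each of these genes both immune values lay above both others. In edgeR's fit the log2 fold changes were 6.40 ± 0.45 for Top2a (standard error derived from the test, adjusted p 9.3e-13), 5.74 ± 0.69 for Mki67 (4.9e-08) and 6.04 ± 0.68 for Cdk1 (1.2e-08), with 20 sums and 9 residual degrees of freedom. These fitted values weigh the immune populations equally, and on the other side VSMC, fibroblasts and endothelium equally as classes. Some populations had no UMI of the gene, so the size of the folds depends on the prior count and is no bound. Outside the 18 cells Top2a had 5.83 and 4.15 CPM in immune cells, Mki67 3.33 and 0.519 and Cdk1 0.833 and 5.19. The other cells then had 0.101 and 0.402 CPM of Top2a, 0.406 and 0.344 of Mki67 and 0.406 and 0.229 of Cdk1. Both immune values remained above both others for each of the 3 genes, by little for Mki67 in library 2 and for Cdk1 in library 1. Each of those immune values came from 1 UMI, so the order there cannot be relied on. None of the 3 passed the filter.

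Cks2 was the only mitotic member that passed the filter without the 18 cells, so the others could not be tested there. Aurkb, for example, had 5.00 and 3.12 CPM in the remaining immune cells against 0.203 and 0 CPM in others. Cks2 had 42.2 and 65.1 CPM in immune cells and 6.58 and 6.82 CPM in others, a log2 fold change of 3.48 ± 0.24 (edgeR, adjusted p 1.2e-13). With the 18 cells left out Cks2 had 31.7 and 49.9 CPM against 6.49 and 6.20 CPM, and the fold was 2.88 ± 0.35 (adjusted p 5.5e-08, range over the alternatives 7.4e-52 to 4.8e-05). A UMI of Cks2 was found in 7.18% and 16.4% of Mono 1, 25.0% and 27.5% of Mono 2 and 4.49% and 12.8% of Macro cells. In Mono 1, 15 of its 97 UMIs lay in cells with 7 or more other members, and in Mono 2 10 of 50. In Macro it was 25 of 37.

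Among replication members Pcna had 90.8 and 82.3 CPM in immune and 43.1 and 37.1 CPM in other cells (log2 fold 1.16 ± 0.13, edgeR adjusted p 4.8e-09). The fold was 0.85 ± 0.15 without the 18 cells (adjusted p 1.9e-05, range over the alternatives 4.4e-20 to 0.033). Mcm5 had 18.7 and 17.3 against 2.63 and 2.35 CPM, with folds of 2.97 ± 0.42 and, without those cells, 2.64 ± 0.45 (adjusted p 4.6e-07 and 1.4e-05, the latter the highest over the alternatives). Mcm2, Mcm3 and Mcm7 were also called higher both with and without them. Over the alternatives (edgeR or DESeq2) the highest adjusted p was 0.013 for Mcm2, 0.39 for Mcm3 and 0.0011 for Mcm7, so Mcm3 lost the call in an alternative. Rrm2 had 12.2 and 22.2 CPM against 1.92 and 2.98, and without the 18 cells 0.833 and 0.519 against 1.93 and 2.81 CPM, which is the opposite order. Those immune values came from 1 UMI in each library, of 15 and 45 with the 18 cells, which Rrm2 helped to choose. Tyms had 8.11 and 14.3 CPM against 13.7 and 12.1, with a fold of -0.20 ± 0.34 that was not called (adjusted p 0.70). Outside the 18 cells Tyms had 3.33 and 5.71 CPM in immune cells against 13.7 and 12.1, and was called lower with a fold of -2.99 ± 0.72 (adjusted p 0.00097, up to 0.84 in the other alternatives). The members, Tyms among them, chose the cells left out. Its UMIs thereby fell from 39 to 15 in immune cells and from 347 to 346 in others, so this call is a description. Mcm6 had 30.0 and 34.5 CPM in immune cells and 34.2 and 30.1 CPM in others. Its called fold of 0.60 ± 0.21 (edgeR adjusted p 0.016) sets the immune populations at equal weight and VSMC, fibroblasts and endothelium at equal weight as classes. Without the 18 cells Mcm6 was not called (0.43 ± 0.22, adjusted p 0.10, the highest over the alternatives).

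Within the immune populations part of the members were higher in Macro than in Mono 1. With every gene of at least 1 UMI in the fit, 11 of 33 members were called lower in Mono 1 than in Macro and 0 higher (edgeR), against 6.08% of genes called lower. With the filter it was 10 of 22 lower and 0 higher, against 9.94% and 14.1% of all genes. That count supports nothing, since a rare member could pass the filter only through the cells where it is high, and the same holds for the filtered counts of the comparisons below. Top2a had 5.72 and 22.4 CPM in Mono 1 and 96.2 and 95.6 in Macro (log2 fold -2.69 ± 0.50, adjusted p 0.00011). Rrm2 had 0 and 12.0 CPM in Mono 1 and 62.8 and 77.9 in Macro, and Ube2c 0 and 6.40 against 41.8 and 63.7. Over the alternatives that tested them the adjusted p (edgeR or DESeq2) rose to at most 0.0050 for Top2a, 0.0012 for Rrm2 and 0.0020 for Ube2c. Without the 18 cells none of these genes was tested. Macro then kept 7 of 50 UMIs of Top2a, 2 of 37 of Rrm2 and 2 of 28 of Ube2c, so these calls rest mostly on very few cells. Also called lower in Mono 1 were Ccna2, Mcm2, Mcm4, Mki67, Birc5, Nusap1 and Kif11. Of these, 5 lost the call in an alternative: with DESeq2 the adjusted p was 0.73 for Ccna2, 0.23 for Mki67 and 0.097 for Kif11, and with no library term 0.076 for Nusap1 and 0.051 for Birc5. These are the highest values over the alternatives. Mcm2 had 5.72 and 9.60 CPM in Mono 1 and 37.7 and 42.5 in Macro, and Mcm4 8.58 and 12.0 against 41.8 and 31.9. These were the 2 of 10 tested members still called without the 18 cells (Mcm2 -2.72 ± 0.61, adjusted p 0.0011, range 0.0010 to 0.0054, and Mcm4 -1.91 ± 0.49, adjusted p 0.0043, range 0.0037 to 0.026). Between Mono 1 and Mono 2, 2 of 22 members were called lower in Mono 1, Ube2c (-2.50 ± 0.82, edgeR adjusted p 0.032) and Birc5 (-2.30 ± 0.76, adjusted p 0.036), and 0 higher, against 8.12% and 9.01% of all genes. With no filter it was 2 of 33 lower, against 4.88%. With DESeq2, or with no term for the library, 0 of 22 were called (2 at an unadjusted p under 0.05 in each), and without the 18 cells 0 of 10 (1 unadjusted). Birc5 had 0 and 8.00 CPM in Mono 1 and 6.79 and 32.2 in Mono 2.

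Mcm6 was higher in smooth muscle cells than in fibroblasts. It had 253 UMIs in VSMC of library 1 and 351 in library 2, or 42.5 and 46.2 CPM, against 17.2 and 14.8 CPM in Fibro 1 and 28.8 and 16.3 CPM in Fibro 2. Both VSMC values lay above all 4 fibroblast values, and the log2 fold was 1.31 ± 0.17 (edgeR, adjusted p 6.5e-08). Other populations reached the same level: Macro had 37.7 and 63.7 CPM, Mono 2 had 44.1 and 26.2 and EC 3 had 7.76 and 46.2, all overlapping VSMC. A UMI was found in 17.8% and 26.3% of VSMC cells (exact intervals 15.6 to 20.2% and 23.7 to 29.1%), with a median of 6025 UMIs, against 7.95% and 8.85% of Fibro 1 cells, with a median of 5513. VSMC gave 604 of its 970 UMIs, of which 1 lay in a cell with 7 or more other members, and 211 of 474 such VSMC cells held no other member. In all, 4 of 22 members were called higher in VSMC than in fibroblasts, against 22.9% of all genes, and 2 lower, against 25.4%. Tpx2 was higher (2.42 ± 0.73, adjusted p 0.0074), with 2.18 and 3.03 CPM in VSMC, and its 36 UMIs there lay in 31 cells. Cks2 was higher by 0.93 ± 0.31 (adjusted p 0.014). Top2a was higher by 3.51 ± 1.09 (adjusted p 0.0088), but 17 of its 19 UMIs lay in the 2 VSMC cells with many members, and without them it was not tested. Tyms (-0.81 ± 0.22, adjusted p 0.0024) and Rrm1 (-0.63 ± 0.21, adjusted p 0.015) were lower in VSMC. With DESeq2 and with no library term, Cks2 (adjusted p 0.14 and 0.068) and Rrm1 (0.079 and 0.061) were not called, and over all alternatives the highest adjusted p was 0.17 for Cks2 and 0.079 for Rrm1. Tyms was not called after thinning each cell to 1300 UMIs (-0.88, adjusted p 0.17, the highest over its alternatives). Top2a had an adjusted p of 0.050 with no library term, the highest over its alternatives.

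Endothelium was compared with smooth muscle and fibroblasts. Of 22 members Pcna was the only one called, higher by 0.50 ± 0.14 on the log2 scale (edgeR, adjusted p 0.0054), against 18.5% of genes called higher and 22.8% lower. Over the alternatives its adjusted p ranged from 0.0016 to 0.23, and it was not called after thinning. It had 54.4 and 41.4 CPM in EC 1, 76.9 and 55.4 in EC 2 and 77.6 and 64.7 in EC 3, against 41.1 and 35.7 in VSMC and 36.9 and 32.7 in Fibro 1. Fibro 2, with 49.0 and 37.0 CPM, overlapped EC 1. In Neuron, Mki67 gave 5 UMIs in 4 of 32 cells of library 2 and 0 in 12 cells of library 1, where a count of 0 allows up to 25.0% of cells. None of those 4 cells held 7 other members.

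Other genes of the cycle, from lists that exclude the members, were read in cells chosen by the members. Within each population and library, cells with 3 or more members were compared with the other cells, in 7 populations (13 residual degrees of freedom). The members themselves were not tested. Of 33 listed genes that passed the filter, 6 were called higher and 0 lower, against 0.33% of 3939 genes called higher. Here too a rare gene could pass the filter only where it is high, so this count supports nothing. Stmn1, which destabilises microtubules, had 93.3 and 183 CPM in cells with 3 or more members and 14.6 and 18.4 CPM in others (log2 fold 2.66 ± 0.33, edgeR adjusted p 2.2e-06). Hmgb2, a chromatin protein, was higher by 1.32 ± 0.23 (adjusted p 0.0011), H2afz, a histone variant, by 0.67 ± 0.13 (0.0034), Tuba1b, a tubulin, by 0.59 ± 0.14 (0.035) and Smc4, of condensin, by 0.87 ± 0.15 (0.0011). The other called gene was Ran, a nuclear transport GTPase (0.51 ± 0.12, 0.029), named outside the rule for named genes. None of 11 tested CDK inhibitors and brakes was called, and neither was any of 4 G1 cyclins and kinases. With 0.33% of all genes called higher, such short lists would hold few or no calls, so this says nothing particular about them. Cells with 3 or more members were deeper, with a median of 8635 against 4800 UMIs, and the part of depth in these folds was not tested.

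Outside the lists the largest called differences were mostly lower. Xdh (xanthine dehydrogenase) had 21.0 and 34.2 CPM in cells with 3 or more members and 32.5 and 61.0 in others, a log2 fold of -0.85 ± 0.16 (edgeR adjusted p 0.0035). These CPM are on the scale of the kept genes. Smoc2, a matrix protein (-0.79 ± 0.19), C3, the complement component (-0.64 ± 0.15), B4galt1, a galactosyltransferase (-0.64 ± 0.13), and Lpl, lipoprotein lipase (-0.61 ± 0.16), were lower. So were Samhd1, which hydrolyses deoxynucleotides (-0.59 ± 0.14), Man1a (-0.59 ± 0.14), Gpx3 (-0.59 ± 0.14) and Lox, which cross-links collagen (-0.58 ± 0.12). Ass1, argininosuccinate synthase, was higher by 0.68 ± 0.16.

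In the 14 immune cells with 8 or more members the same kinds of genes stood far higher. These cells are also part of those with 3 or more members, so the 2 comparisons are not separate. The fit at this limit, chosen after the counts were seen and with sums of as little as 1 cell, called 21 of 29 tested list genes higher and 3 lower, against 3.37% and 7.42% of 1752 genes. That count supports nothing, since a rare gene could pass the filter only through the cells where it is high. The cells were also chosen for RNA of the cycle. Stmn1 had 2793 and 2629 CPM in these cells and 32.9 and 60.5 CPM in the other cells of Mono 1, Mono 2 and Macro. Hmgb2 had 2873 and 3540 against 283 and 188 CPM, and H2afz 4269 and 4296 against 803 and 774 CPM. All 25 UMIs of Pbk, a mitotic kinase, in these populations lay in the 14 cells. Spc24, of the kinetochore, had 37 of its 50 UMIs there, and Cks1b 45 of 81. The 3 lower genes were the antiproliferative Btg1 (598 and 333 against 1123 and 784 CPM) and Btg2 (120 and 282 against 603 and 584) and the stress gene Gadd45b (79.8 and 25.6 against 76.1 and 216). For Gadd45b the libraries did not share the direction, and it had 4 UMIs in the 14 cells. Gmnn, the geminin that blocks relicensing, was read outside the lists with 479 and 231 against 20.7 and 23.8 CPM.

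**Figure D5:**
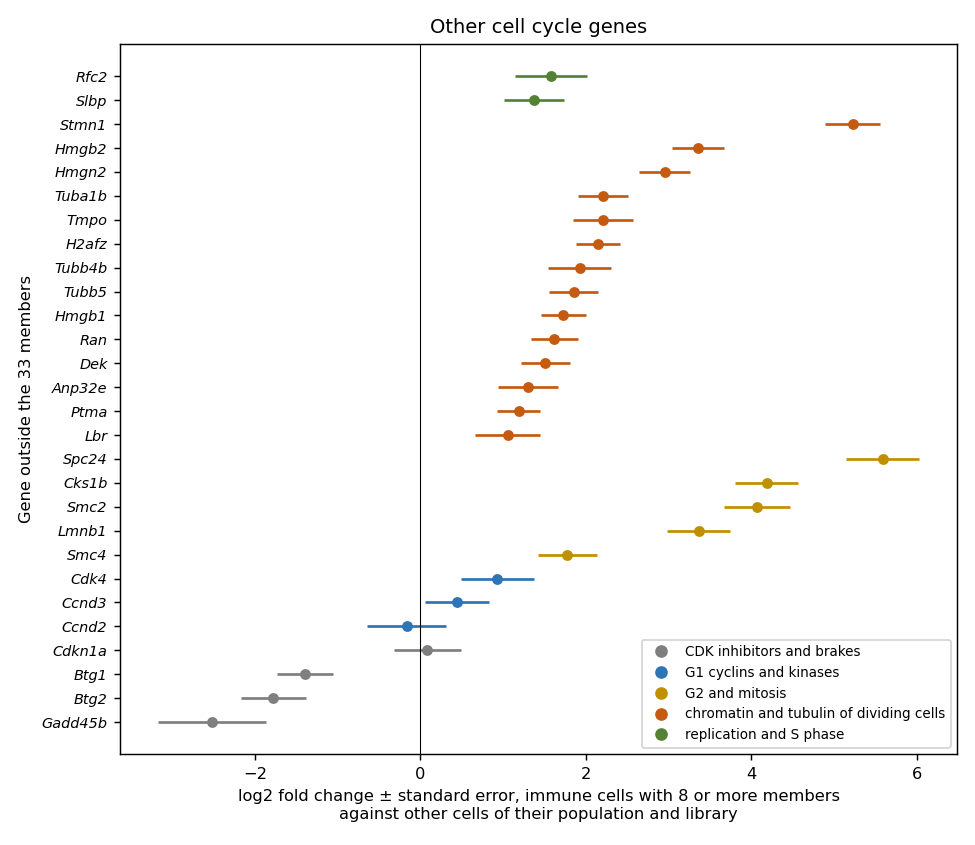
Log2 fold change ± standard error (edgeR) of 28 listed cell cycle genes outside the members, 14 immune cells with 8 or more members against other cells of their population and library, coloured by list; Pbk, with no UMI in the other cells, is left out. Spc24 and Stmn1 lie highest at 5.59 and 5.22, chromatin and tubulin genes lie above 1, and Btg1, Btg2 and Gadd45b lie below -1.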

How the data were processed

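Counts of UMIs per gene and cell were deposited by the authors with a population name for each cell. Per the submitters' processing notes Cell Ranger 2.1 was used, and a genome build and annotation for the counts are not given in the sources used here. The barcode's last number gave the library, and which library is the aorta labelled 1 or 3 is not stated. UMIs were summed for each population and library with at least 10 cells, kept by filterByExpr, scaled by TMM and fitted with edgeR 4.0.16 (R 4.3.3) with population and library as terms. Classes were compared as means of their populations, and p-values adjusted by Benjamini-Hochberg over all genes. The test of other genes in cells with 3 or more members used populations with at least 5 such cells in each library. The code was tested on simulated data. Doublets were called by Scrublet (scanpy 1.11.5, 58 and 26 cells) and kept. Standard errors are the absolute log2 fold divided by the square root of F. Intervals came from scipy 1.17.1 and figures from matplotlib 3.10.9 (Python 3.11.15).

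The members, gene lists, comparisons and tests were chosen with earlier results of these data known. The text names all 33 members, up to 4 called genes of each other list with the largest fold and at least 20 UMIs in each comparison, and the 10 largest folds of called genes outside the lists with the same direction in both libraries in cells with 3 or more members. Genes named in single cells or in the cells with 8 or more members were chosen after their values were seen, as were the limit of 8 members and the fit without those cells. Alternatives were RLE factors, DESeq2 1.42.0, no filter, no library term, doublets left out, thinning to 1300 UMIs, other limits of members and each library left out. The chow diet is named by the deposited tables. The labels count mice and dissociated aortas, so each library was taken as 1 animal, and p-values rest on 2 libraries.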

Additional observations from a re-analysis of the deposited data

How the results depend on the processing

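No paired analysis by replicate number was possible because the samples form 1 group; the library term served as the block, and removing it left 0 of 2 members called between Mono 1 and Mono 2 and 3 of 6 between VSMC and fibroblasts. Thinning to 1300 UMIs left 5 members tested, of which 2 were called for immune against other classes, 0 for Mono 1 against Mono 2, 0 for Mono 1 against Macro, 0 for endothelium and 1 for VSMC against fibroblasts. DESeq2 called 0 between Mono 1 and Mono 2, and 2 for endothelium in place of 1, as did the fit with no filter. The shares of all genes called in these fits are not given here, so the counts only compare settings. Without the 18 cells with 8 or more members, an alternative chosen after seeing the data, 7 of 10 tested members were called for immune cells, 0 for Mono 1 against Mono 2 and 2 for Mono 1 against Macro, and the fold of Rrm1 in immune cells turned from 0.78 to -0.16 (adjusted p 0.76). The members chose the cells left out, so these changes are a description. In cells with 3 or more members 6 listed genes were called, 54 of 129 with no filter, and 24 of 29 at 8 or more members. Of all genes 0.33% were called higher at 3 or more members. At 8 or more members 3.37% were called higher and 7.42% lower. The share with no filter is not given here, so that count has no background. The fits at 5 or more members and after thinning could not be made, as no population had 5 such cells in each library. The mean share of cells over libraries was 6.49% at 3 or more members, 19.7% at 2, 0.808% at 5, 0.308% at 8, 0.321% for 3 or more mitotic members and 0.592% after thinning. The summed level was 196 CPM, 185 CPM as a mean over cells and 166 CPM without the 18 cells. With 1 library left out, these values ranged from 6.15 to 6.83% and from 194 to 197 CPM. RLE factors and leaving out doublets kept every count of calls within 1.5 times. In immune cells 32 of 33 members had the higher mean CPM of populations, with 30 in library 1 alone and 32 in library 2 alone. The share of all genes that did so is not given here. By depth, 11 members with 9 to 118 UMIs did not pass the filter and 22 with 20 to 1351 did. Leaving a library out gives no test, since no residual degrees of freedom remain.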

Other observations

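Other genes of the cycle are given here for the same comparisons of populations (edgeR, log2 folds ± standard error). Between VSMC and fibroblasts, fibroblasts had more E2f1, the S phase transcription factor, with 22.6 and 22.9 CPM against 1.51 and 2.24 CPM in VSMC (fold of VSMC against fibroblasts -3.58 ± 0.28, adjusted p 2.1e-12). Slbp, which binds histone mRNA, was lower too (-0.92 ± 0.12). Myc (-3.22 ± 0.23), Ccnd1, cyclin D1 (-2.95 ± 0.36), and Gas1, a growth arrest protein (-3.59 ± 0.15), were also lower in VSMC, as were Cdkn1c (-2.31 ± 0.12) and Ccng2 (-0.90 ± 0.16). Cdk6 (3.08 ± 0.32), Rb1 (0.63 ± 0.22) and Btg1 (1.21 ± 0.15) were higher. Anln, the scaffold of the cytokinetic ring, had 50.5 and 51.9 CPM in VSMC and 4.72 and 3.54 CPM in fibroblasts (3.77 ± 0.21, adjusted p 7.5e-16), and Smc2 was higher by 0.69 ± 0.21. Lmnb1, lamin B1 (-1.61 ± 0.33), and Cks1b (-0.88 ± 0.13) were lower. Of the chromatin genes Dek (1.02 ± 0.10), Anp32e (0.74 ± 0.12) and Lbr (0.67 ± 0.18) were higher and Hmgn2 lower (-0.60 ± 0.11).

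Mono 1 had more of the CDK inhibitors Cdkn1a (336 and 304 CPM against 50.2 and 53.1, 2.76 ± 0.33, adjusted p 8.2e-08) and Cdkn1c (3.29 ± 0.70, adjusted p 0.0005) than Macro. The D cyclins went in opposite directions. Ccnd1 was higher in Mono 1 (144 and 77.6 CPM against 4.18 and 3.54, 4.87 ± 0.73), while Ccnd2 (78.6 and 44.8 against 264 and 287 CPM, -2.11 ± 0.27, adjusted p 2.2e-07) and Ccnd3 (-0.89 ± 0.23, adjusted p 0.0036) were lower. Btg1 was lower in Mono 1, with 279 and 218 CPM against 1510 and 1466 (-2.48 ± 0.20), and so was Ccng2 (-1.75 ± 0.40). Of 13 tested inhibitors and brakes, 2 were higher and 5 lower in Mono 1, against 14.1% and 9.94% of all genes. E2f1 was higher (1.62 ± 0.57) and Dut lower (-1.29 ± 0.37). Racgap1 (-2.31 ± 0.66), Smc4 (-2.09 ± 0.27), Lmnb1 (-2.03 ± 0.45), Cks1b (-2.01 ± 0.45), Hist1h2ap (-2.26 ± 0.61), H2afx (-2.02 ± 0.41), Stmn1 (-1.45 ± 0.24) and Hmgb2 (-1.45 ± 0.19) were lower, in sums that include the 18 cells.

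Against Mono 2, Mono 1 had more Cdkn1c (2.65 ± 0.57), Cdkn2c (1.35 ± 0.38), Cdkn1a (1.13 ± 0.26) and Lig1 (1.71 ± 0.58). It had less Btg1 (-1.45 ± 0.20), Cdca8 (-1.99 ± 0.67), Cks1b (-1.85 ± 0.43), Lmnb1 (-1.72 ± 0.44), H2afz (-1.37 ± 0.19), Tmpo (-0.84 ± 0.28), Ran (-0.68 ± 0.16) and Hmgb2 (-0.62 ± 0.20).

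Immune cells, with the 18 cells included, had more Cdca8 (5.78 ± 0.57), Kif23 (5.76 ± 0.58), Cdca3 (5.70 ± 0.69), Pbk (5.55 ± 0.79), Hist1h2ap (5.94 ± 0.60), Stmn1 (3.09 ± 0.17), Hmgb2 (224 and 282 CPM against 28.1 and 42.4) and H2afz (1.92 ± 0.10) than the other classes. Cdt1 (3.04 ± 0.54), E2f1 (2.32 ± 0.39), Fen1 (7.30 and 15.3 CPM against 3.97 and 4.15), Slbp (1.24 ± 0.12), Cdk6 (1.99 ± 0.30), Myc (1.84 ± 0.25), Rbl1 (1.71 ± 0.41), Btg1 (2.01 ± 0.10) and Gadd45b (1.92 ± 0.22) were also higher, and Cdkn1c (-3.10 ± 0.24), Gas1 (-2.68 ± 0.37) and Ccnd2 (-1.30 ± 0.13) were lower.

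Endothelium had more Ccnd1 (46.4 and 54.6 CPM against 7.51 and 7.96 in VSMC and fibroblasts, 3.37 ± 0.26), Stmn1 (2.24 ± 0.25), Cenpa (1.84 ± 0.45), Lbr (1.77 ± 0.18), Rbl1 (1.35 ± 0.52), Smc4 (1.32 ± 0.22), Cdkn1c (1.22 ± 0.13), Cdkn1a (1.13 ± 0.14), Lin54 (1.03 ± 0.31), Tubb4b (0.81 ± 0.12) and Hmgb2 (0.75 ± 0.18). It had less Gas1 (-3.77 ± 0.23), Anln (-3.00 ± 0.51), Cks1b (-2.33 ± 0.25), Ccng1 (-1.20 ± 0.19), Dut (-0.82 ± 0.21) and Ccnd2 (-0.47 ± 0.13).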
